A study of Mus musculus with 24 samples.

Results

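The 9 interferon-stimulated genes described here, Ifitm3, Bst2, Ifit1, Ifit2, Ifit3, Isg15, Usp18, Stat2 and Rtp4, were followed across the lumbar spinal cord (SC) of 24 mice. They were chosen by name as a panel of classical interferon targets, and all 9 were found among the 15524 genes of the deposited table, with none lost to a filter on level. The study profiled bulk SC by MARS-seq, which captures the 3′ ends of transcripts and tags single molecules. It held 4 male SOD1-G37R mice that received the vector AAV-PHP.eB-MIF after disease onset (AAV-MIF), 10 untreated SOD1-G37R mice and 10 untreated non-transgenic (NT) littermates. Untreated mice came from 2 experiments. Both sexes were used in experiment 1 (3 SOD1-G37R and 3 NT mice of each sex), whereas experiment 2 held 4 SOD1-G37R and 4 NT males. The SOD1-G37R line expresses human SOD1 with a mutation that causes familial amyotrophic lateral sclerosis, and its motor disease starts late in life. The untreated SOD1-G37R mice were symptomatic, and AAV-PHP.eB is a capsid that reaches the mouse nervous system from the blood. MIF is a cytokine that signals through CD74. No SOD1-G37R mice given an empty or unrelated vector were analysed here, so an effect of MIF and one of the vector cannot be told apart. The AAV-MIF mice were placed with the males of experiment 2 because their codes follow the same style, and no source states their experiment or age.

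Type I interferons bind the receptor IFNAR1/IFNAR2 and, through the kinases JAK1 and TYK2, activate STAT2, which joins IRF9 in a complex that binds the interferon-stimulated response element (ISRE) of target promoters. Interferon-gamma acts through its own receptor and the gamma-activated site of its target promoters, and many genes answer to both. Within the central nervous system microglia, astrocytes and endothelial cells all respond to interferon, and the products of the genes restrict viruses, modify proteins or restrain the pathway itself.

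To show what the panel shares at the level of sequence, RefSeq promoter windows of GRCm38.p6, which span 250 bases before to 50 bases after a start site, were searched on both strands for the ISRE core GAAANNGAAA, which reads TTTCNNTTTC on the other strand. Windows were matched for 7 of the 9 genes. A core was found in 6 of these, Isg15, Ifitm3, Bst2, Stat2, Ifit3 and Ifit1, against 3.44% of all 32851 windows. Stretches of 30 bases that hold these cores are given 5′ to 3′ on the strand of the gene, with the core in capitals.
Isg15, chr4:156200871-156200900, minus strand: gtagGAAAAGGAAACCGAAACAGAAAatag
Ifitm3, chr7:141010714-141010743, minus strand: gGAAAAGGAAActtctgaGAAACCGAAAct
Bst2, chr8:71537580-71537609, minus strand: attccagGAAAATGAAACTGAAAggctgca
Stat2, chr10:128270266-128270295, plus strand: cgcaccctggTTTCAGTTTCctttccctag
Ifit3, chr19:34583363-34583392, plus strand: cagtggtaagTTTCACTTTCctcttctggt
Ifit3, chr19:34583397-34583426, plus strand: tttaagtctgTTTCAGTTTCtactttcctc
Ifit1, chr19:34640785-34640814, plus strand: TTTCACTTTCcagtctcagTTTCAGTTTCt
Each of the 3 cores of Isg15 overlaps the next, as do the 2 of Bst2, while the pairs in Ifitm3, Ifit1 and Ifit3 stand apart. The cores of Stat2, Ifit3 and Ifit1 lie on the opposite strand to the gene, and those of Ifitm3 lie just after its start site. Neither of the 2 Ifit2 windows held an ISRE core. The gamma-activated site core TTCNNNGAA, which reads the same on both strands, was found for Ifitm3, Bst2 and Ifit2, against 8.3% of all windows, and in Ifitm3 and Bst2 it overlaps an ISRE core. These matches are letters in a window and were not tested for binding.

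In GRCm38 with GENCODE M21, Ifitm3 spans chr7:141009586-141010770, Bst2 chr8:71534255-71537456, Isg15 chr4:156199424-156200818, Usp18 chr6:121245906-121270917, Stat2 chr10:128270559-128292849 and Rtp4 chr16:23520291-23614222. The Ifit genes sit beside each other on chromosome 19, with Ifit2 at chr19:34550694-34576419, Ifit3 at chr19:34583531-34588731 and Ifit1 at chr19:34640871-34650009. Reads of Ifit3 could be shared with its near-identical neighbour Ifit3b, those of Ifitm3 with Ifitm2 and Ifitm1, and those of Rtp4 with Gm45338, which overlaps it on the same strand, so these values carry that uncertainty. Usp18 and Rtp4 also overlap genes on the other strand, and the use of strand in counting is not given in the sources used here.

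Levels are the log2 values per mouse as deposited, after the authors' removal of the difference between experiments. Values of all genes ran from -0.79 to 14.8, the median over genes lay between 4.08 and 4.23 in every mouse, and mice of a group correlated at 0.9895 to 0.9953 across genes. Which transform made the values is not given in the sources used here. Only an average number of reads per sample is reported. Without read totals per mouse the depth behind a value, and hence its counting precision, is unknown. The median SD within groups was 0.111 for genes below a level of 1, against 0.213 for genes at a level of 3 to 4, so a difference of a low gene may be understated. Calls rest on limma over the whole table, with a threshold of 0.05 on the p adjusted by Benjamini-Hochberg. Labels do not say more of how mice were drawn than their group and number. The p-values measure the spread between these mice after the removal of the difference between experiments. The fits do not take account of that removal, so their p-values may be too small.

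SOD1-G37R mice differed from NT mice in 2 of the 9 genes by the test. Ifitm3 and Bst2 were higher, and the 3 Ifit genes, Isg15, Usp18, Stat2 and Rtp4 were not called. The called share, 2 of 9, stood beside 26.5% of all genes called in this comparison, 14.8% higher and 11.8% lower, and so was close to that of the table as a whole. The median difference of the 9 genes was -0.03 on the log2 scale, against 0.00058 over all genes. Estimates were large for Ifitm3 and Bst2 and near 0 for the rest, and a called share this close to the table's does not set the panel apart.

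Ifitm3 encodes a transmembrane protein of endosomes that blocks the fusion of viruses with the cell. In experiment 2 its level was 7.09, 6.67, 7.02 and 6.69 in SOD1-G37R males, against 6.05, 6.35, 5.70 and 6.46 in NT males. In experiment 1 the lowest, median and highest levels were 6.83, 7.04 and 7.36 in 6 SOD1-G37R mice, against 5.91, 6.03 and 6.40 in 6 NT mice. Every SOD1-G37R mouse lay above every NT mouse, in each experiment and over both, which held for 3.23% of all genes wholly higher over both experiments. Within experiment 2 alone 6.56% of all genes were wholly higher. The difference was 0.88 ± 0.10 (SE, n = 10 each) on the log2 scale in limma (adjusted p = 1.754e-07), with a 95% interval of 0.69 to 1.08. It was 0.99 in experiment 1 (exact permutation test, two-sided, p = 0.00216) and 0.73 in experiment 2 (exact permutation test, two-sided, p = 0.0286), in each case the smallest p that the number of mice allows.

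Bst2 encodes tetherin, which holds budding viruses at the cell surface. Its level was 6.26, 5.54, 5.92 and 5.94 in SOD1-G37R males of experiment 2, against 4.997, 6.16, 4.88 and 5.99 in NT males. In experiment 1 the lowest, median and highest levels were 6.05, 6.16 and 6.64 in SOD1-G37R mice, against 4.78, 5.39 and 5.64 in NT mice. The groups did not overlap in experiment 1, where 7.07% of all genes were wholly higher, and they did in experiment 2, where NT males 2 and 4 reached the level of the SOD1-G37R males. The difference was 0.77 ± 0.16 (SE, n = 10 each) in limma (adjusted p = 9.156e-04), with a 95% interval of 0.43 to 1.10. Within experiments it was 1.003 in experiment 1 (exact permutation test, two-sided, p = 0.00216) and 0.41 in experiment 2 (exact permutation test, two-sided, p = 0.314), and the limma call was lost in experiment 2 alone (adjusted p = 0.516). Between the experiments the difference in males did not itself differ by the test of the interaction (-0.58 ± 0.40 for experiment 2 minus experiment 1, limma adjusted p = 0.999), with a 95% interval of -1.42 to 0.26. This interaction was tested on values already adjusted between the experiments, which limits what it can show.

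**Figure D1:**
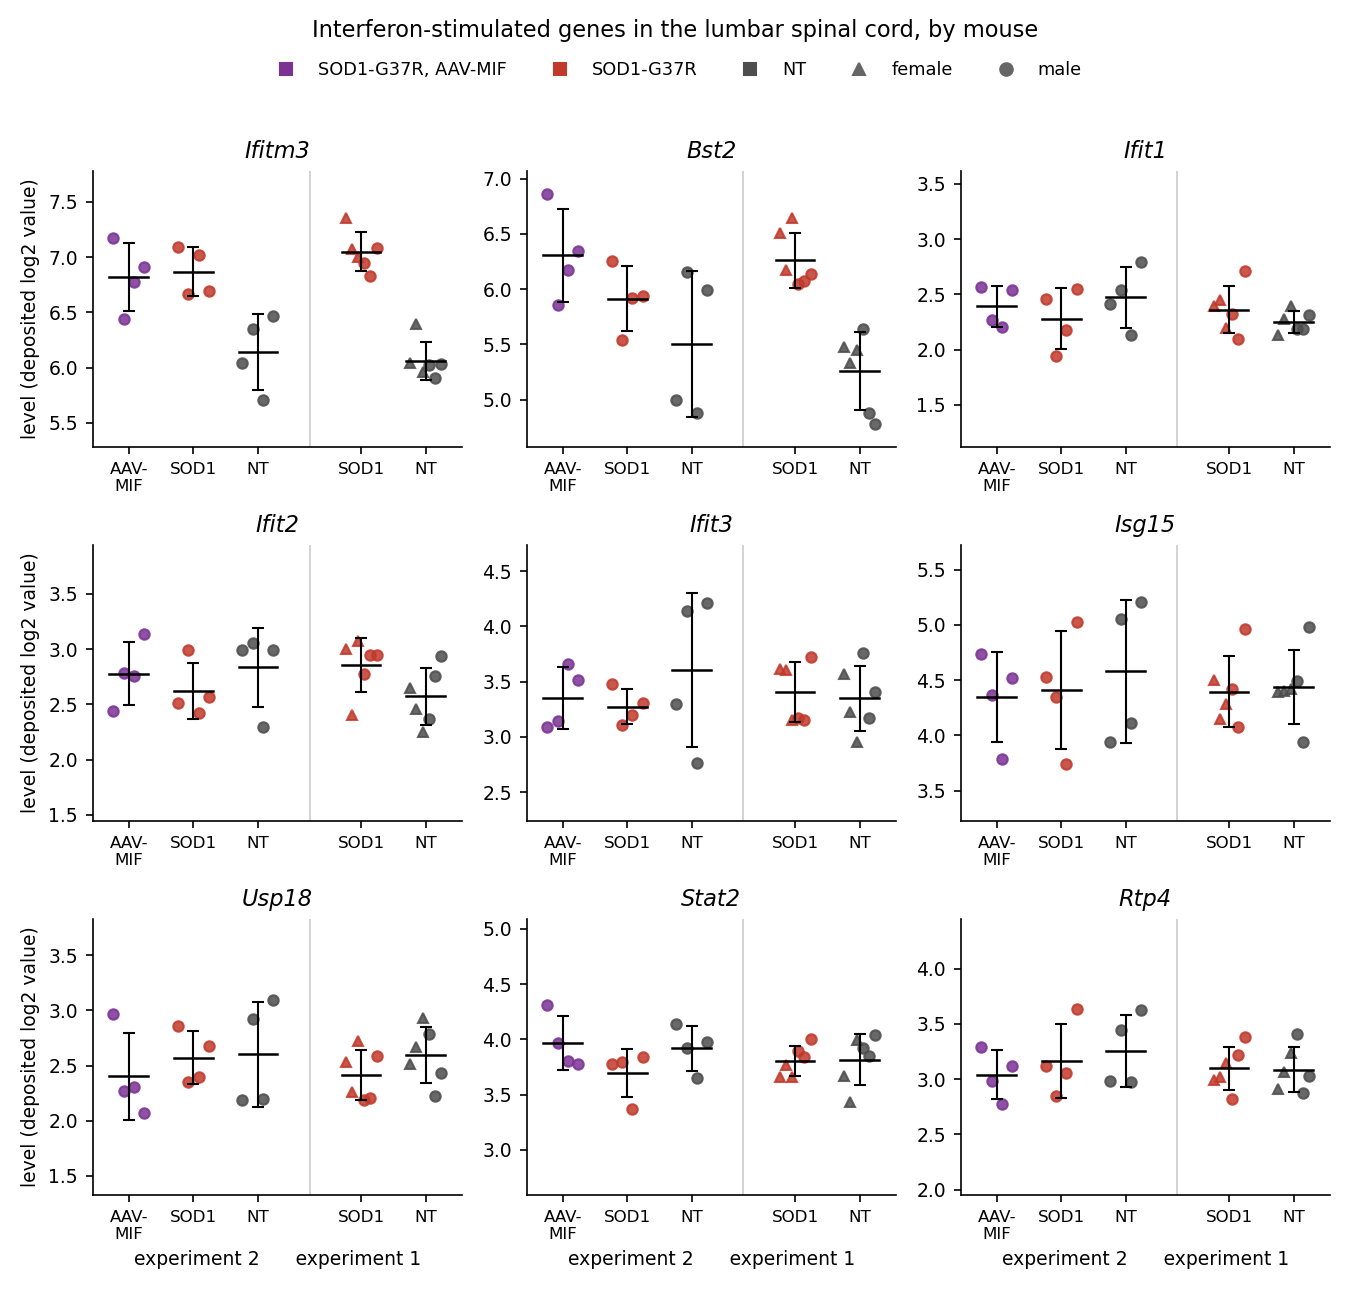
Deposited log2 level of each gene in each mouse, by group and experiment, with AAV-MIF mice in purple, SOD1-G37R mice in red and NT mice in grey, males as circles and females as triangles. Horizontal lines are group means and bars 1 SD over mice, each panel spans the same range of levels, and Ifitm3 is the gene in which all SOD1-G37R mice lie above all NT mice in both experiments.

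The Ifit genes encode proteins that bind foreign RNA and block its translation. Ifit1 had a level of 2.33 ± 0.23 in SOD1-G37R mice and 2.34 ± 0.21 in NT mice (SD, n = 10 each), a difference of -0.01 with a 95% interval of -0.20 to 0.18. Ifit2 had 2.76 ± 0.26 in SOD1-G37R mice and 2.68 ± 0.31 in NT mice (SD, n = 10 each), a difference of 0.09 with an interval of -0.16 to 0.34. Ifit3 had 3.35 ± 0.23 in SOD1-G37R mice and 3.45 ± 0.48 in NT mice (SD, n = 10 each), a difference of -0.10 with an interval of -0.41 to 0.22. For all 3 the groups overlapped over most of their range, and the limma adjusted p ran from 0.661 to 0.959. For Ifit2 the difference was 0.29 in experiment 1 and -0.21 in experiment 2 (exact permutation tests, two-sided, p = 0.0758 and p = 0.429), so the sign was not shared. Ifit3b, the neighbour of Ifit3, was likewise not called (-0.18 ± 0.15, limma adjusted p = 0.426).

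Isg15 encodes a ubiquitin-like protein that is attached to other proteins, and Usp18 the protease that removes it and that also restrains signalling at IFNAR2. Isg15 ranged from 3.74 to 5.02 with a median of 4.38 in SOD1-G37R mice, against 3.94 to 5.21 with a median of 4.41 in NT mice. Both groups covered more than 1 log2 unit, and the difference of -0.09 ± 0.17 (SE, n = 10 each) lay within an interval of -0.44 to 0.26 (limma adjusted p = 0.752). Usp18 ranged from 2.19 to 2.85 with a median of 2.46 in SOD1-G37R mice, against 2.19 to 3.09 with a median of 2.59 in NT mice. Its difference was -0.12 ± 0.12 (SE, n = 10 each), with an interval of -0.36 to 0.13 (limma adjusted p = 0.531). Of the 6 measured genes listed under ISG15 conjugation, Usp18 included, 3 were higher in SOD1-G37R mice and 1 lower, against 14.8% and 11.8% of all genes. The higher ones were Ube2l6, the conjugating enzyme of ISG15 (0.56 ± 0.12, limma adjusted p = 0.00111), Uba7, its activating enzyme (0.36 ± 0.09, limma adjusted p = 0.00321), and Trim25 (0.31 ± 0.08, limma adjusted p = 0.00374). Herc3 was lower (-0.30 ± 0.10, limma adjusted p = 0.0301). Herc6, which rather than Herc3 is the ligase of ISG15 in the mouse, was not called (0.13 ± 0.05, limma adjusted p = 0.0807), nor were Isg15 and Usp18 themselves.

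Stat2 encodes the signal transducer that acts with IRF9 on the ISRE. It had a level of 3.76 ± 0.17 in SOD1-G37R mice and 3.86 ± 0.21 in NT mice (SD, n = 10 each), a difference of -0.10 with an interval of -0.28 to 0.08 (limma adjusted p = 0.460). Rtp4, a receptor transporter protein that helps some G protein-coupled receptors to the cell surface, had 3.12 ± 0.24 in SOD1-G37R mice and 3.15 ± 0.26 in NT mice (SD, n = 10 each). Its difference was -0.03 with an interval of -0.25 to 0.19 (limma adjusted p = 0.871). The intervals of the 7 genes not called all lay between -0.44 and 0.34, below the estimates for Ifitm3 and Bst2. In simulated data of the same design, 50 genes drawn at random were changed for each size of change. Of those changed by 0.25, 30% were called, and of those changed by 0.5, 86%. Far fewer genes were changed there than the 4120 called in these data, which alters the adjustment of p. Most of the 7 genes also spread more than genes of like level, so these rates are not theirs.

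Within experiment 1 the difference between SOD1-G37R and NT did not depend on sex for any of the 9 genes by the test (limma adjusted p from 0.994 to 0.997). The difference in females minus that in males was 0.05 ± 0.19 for Ifitm3 and 0.04 ± 0.26 for Bst2, with 95% intervals of -0.37 to 0.46 and -0.52 to 0.59, which leave room for a sizeable dependence. Over all genes 0.0% were called for either interaction in limma, and 673 genes for sex and 554 for experiment had an unadjusted p under 0.05.

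**Figure D2:**
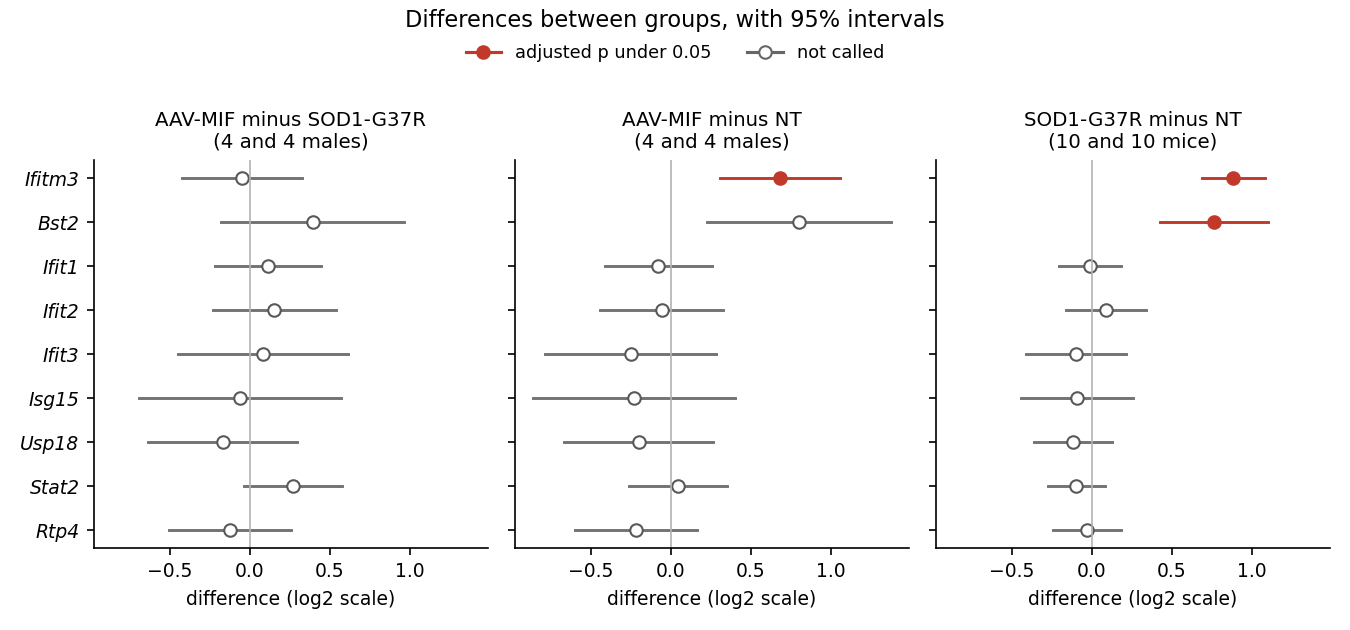
Difference between groups for each gene on the log2 scale (points) with 95% intervals (bars), for AAV-MIF minus SOD1-G37R, AAV-MIF minus NT and SOD1-G37R minus NT. Red marks an adjusted p under 0.05, reached by Ifitm3 and Bst2 for SOD1-G37R minus NT, by Ifitm3 for AAV-MIF minus NT, and by no gene for AAV-MIF minus SOD1-G37R.

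Other genes of the pathway were counted in SOD1-G37R against NT mice in lists chosen with earlier results of these data known. Over all genes 14.8% were higher and 11.8% lower in this comparison. Of 8 interferon genes looked for, among them Ifnb1 and Ifng, none was among the genes analysed here. Among 13 receptors and signalling genes 6 were higher and 0 lower, with a median difference of 0.15. They included Socs3, a feedback inhibitor of cytokine receptors (1.32 ± 0.12, limma adjusted p = 5.17e-09), Il10rb, a subunit of the receptors for IL-10 and interferon-lambda (0.87 ± 0.09, limma adjusted p = 1.45e-07), Ifngr1 (0.76 ± 0.09, limma adjusted p = 2.74e-07) and Ifnar2 (0.76 ± 0.10, limma adjusted p = 2.00e-06). The receptor subunits for each of the interferon types thus include genes that rose in SOD1-G37R mice. Among 15 nucleic acid sensors and their adaptors 7 were higher and 1 lower, led by the adaptor Myd88 (0.58 ± 0.10, limma adjusted p = 7.75e-05), the DNA sensor Aim2 (0.38 ± 0.07, limma adjusted p = 1.85e-04) and the adaptor Ticam1 (0.40 ± 0.08, limma adjusted p = 4.55e-04), while Adar, an RNA editing enzyme, was lower (-0.43 ± 0.11, limma adjusted p = 0.00478).

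Of 69 genes in a wider list of interferon-stimulated genes 51 were measured, and Mx1, Rsad2 and Oas1a were among those not found. Of the 51 measured genes, 17 were higher in SOD1-G37R than in NT mice, 1 lower and 33 not called. The median was 0.12, and of all genes 14.8% were higher and 11.8% lower. This list again holds 5 genes of the list for ISG15 conjugation, Ube2l6, Uba7, Trim25, Herc3 and Herc6, and the sensors Dhx58 and Ifih1. It also shares Cxcl10 with the interferon-gamma list. Without these 8 genes 13 of 43 were higher, 0 lower and 30 not called in limma, with a median of 0.11. The leading members were Lgals3bp, a secreted glycoprotein (1.13 ± 0.12, limma adjusted p = 1.41e-07), Ifitm2, the close relative of Ifitm3 (0.77 ± 0.11, limma adjusted p = 1.66e-05), Cxcl10, a chemokine that draws T cells (0.78 ± 0.12, limma adjusted p = 2.38e-05), and Shisa5 (0.65 ± 0.10, limma adjusted p = 2.85e-05). Of 29 genes listed as targets of interferon-gamma 19 were measured, and Ciita and Cxcl9 were among those not found. Among the 19 measured genes 10 were higher and 0 lower, with a median of 0.33. They were led by Irf8, a transcription factor that microglia also need (1.65 ± 0.09, limma adjusted p = 2.80e-12). The others with the smallest adjusted p were the immunoproteasome subunits Psmb8 (0.97 ± 0.10, limma adjusted p = 1.62e-07) and Psmb9 (0.57 ± 0.10, limma adjusted p = 9.31e-05), and Cxcl10, which both lists hold. Members of both lists lay on each side of Ifitm3 and Bst2, with genes near 0 and genes over 1 on the log2 scale.

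**Figure D3:**
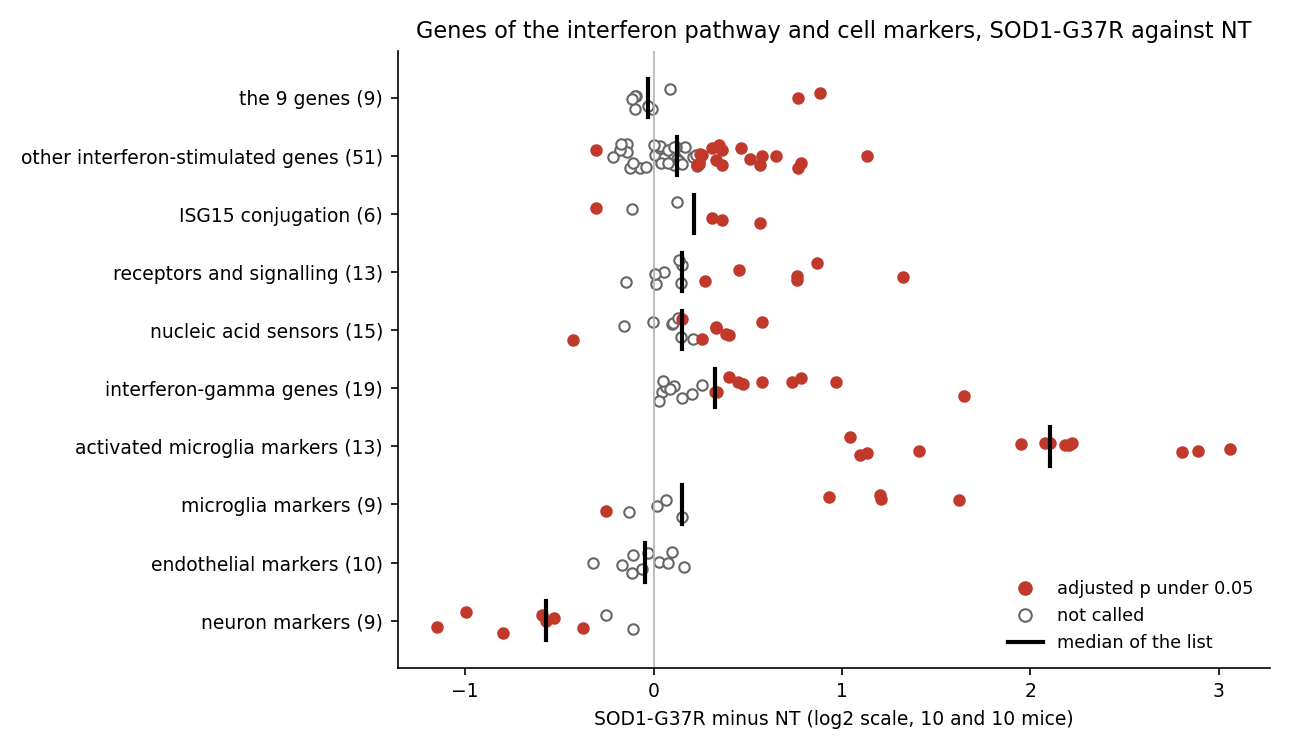
Difference SOD1-G37R minus NT of each measured gene on the log2 scale, by list, with the number of genes in brackets and the median of the list as a black line. Filled red points have an adjusted p under 0.05, and the 9 genes divide into Ifitm3 and Bst2 above 0.7 and 7 open points near 0, whereas all 13 markers of activated microglia lie above 1.

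Cell type markers moved with Ifitm3 and Bst2 between SOD1-G37R and NT mice, where 14.8% of all genes were higher and 11.8% lower. All 13 markers of activated microglia and macrophages were higher, with a median difference of 2.11, among them Lgals3 (3.06 ± 0.14, limma adjusted p = 2.18e-13) and Cd68 (2.89 ± 0.13, limma adjusted p = 2.18e-13). Their mean level ran from 6.62 to 7.71 in SOD1-G37R mice of experiment 2 and from 7.26 to 7.71 in those of experiment 1, against 5.20 to 5.52 and 5.18 to 5.41 in NT mice of the same experiments. Of 9 microglial markers 4 were higher and 1 lower, the list for border macrophages and monocytes had 3 of 4 measured genes higher, and of 8 astrocyte markers 4 were higher and 1 lower. Of 9 neuronal markers 7 were lower and 0 higher, and of 10 endothelial markers 0 were called in limma. None of the 6 measured T cell and natural killer cell markers was called, with a mean level of 0.96 to 1.34 in untreated mice, and Cd3e and Cd4 are not analysed here. The part of these cells in the difference of Ifitm3 and Bst2 was not tested, and in bulk tissue more cells of a type and more RNA per cell cannot be told apart.

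AAV-MIF was compared with the untreated SOD1-G37R males of experiment 2 to ask what the vector changed in diseased mice, and no gene of the panel was called. Over all genes 0.00644% were called, which is 1 gene, Cd74, the invariant chain and receptor of MIF (1.29 ± 0.17, limma adjusted p = 0.0155). It lies outside the rule for named genes and is given because it is the only one. An unadjusted p under 0.05 was found for 511 genes and for none of the 9. In simulated data of this design, again with 50 genes drawn at random per size of change, 20% of those changed by 0.5 were called. Of those changed by 1, 92% were called. Most of the 9 genes spread more than genes of like level, so these rates are not theirs.

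Ifitm3 had a level of 7.17, 6.44, 6.77 and 6.91 in AAV-MIF mice, against 7.09, 6.67, 7.02 and 6.69 in SOD1-G37R males. The ranges coincided, and the difference of -0.05 ± 0.18 (SE, n = 4 each) had a 95% interval of -0.42 to 0.33. Bst2 had 6.86, 5.85, 6.17 and 6.34 in AAV-MIF mice, against 6.26, 5.54, 5.92 and 5.94 in SOD1-G37R males. AAV-MIF mouse 1 was the highest of all 24 mice for Bst2, the groups overlapped, and the difference was 0.39 ± 0.27 with an interval of -0.18 to 0.97 (exact permutation test, two-sided, p = 0.229, n = 4 each). Stat2 had 4.31, 3.97, 3.81 and 3.78 in AAV-MIF mice, against 3.78, 3.79, 3.37 and 3.84 in SOD1-G37R males, a difference of 0.27 ± 0.15 with an interval of -0.04 to 0.58. Mouse 1 again stood highest, and without it the differences were 0.21 for Bst2 and 0.15 for Stat2. The same mouse had a mean level of 8.57 over 4 red cell genes, against 4.10 to 4.38 in the other AAV-MIF mice and 3.93 to 8.24 in the SOD1-G37R males, and the part of blood in these values was not tested.

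The other 6 genes differed between AAV-MIF and SOD1-G37R males by -0.17 to 0.15 on the log2 scale. Ifit1 averaged 2.39 ± 0.19 in AAV-MIF mice and 2.28 ± 0.28 in SOD1-G37R males, and Ifit2 2.78 ± 0.29 in AAV-MIF mice and 2.63 ± 0.25 in SOD1-G37R males (SD, n = 4 each). Ifit3 averaged 3.35 ± 0.28 in AAV-MIF mice and 3.27 ± 0.16 in SOD1-G37R males, and Rtp4 3.04 ± 0.22 in AAV-MIF mice and 3.16 ± 0.33 in SOD1-G37R males (SD, n = 4 each). Isg15 had 4.73, 4.36, 3.78 and 4.52 in AAV-MIF mice, against 4.53, 4.35, 3.74 and 5.02 in SOD1-G37R males. Usp18 had 2.97, 2.26, 2.31 and 2.07 in AAV-MIF mice, against 2.85, 2.35, 2.39 and 2.68 in SOD1-G37R males. Their 95% intervals reached from -0.69 to 0.61, so differences of the size seen for Ifitm3 between genotypes were outside them for each of these 6 genes. In every list of the pathway and of cell markers 0 genes were called in limma for AAV-MIF against SOD1-G37R.

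Against NT males of experiment 2 the AAV-MIF males were higher in 1 of the 9 genes, Ifitm3, where 3.11% of all genes were called, 2.89% higher. Ifitm3 had 7.17, 6.44, 6.77 and 6.91 in AAV-MIF mice, against 6.05, 6.35, 5.70 and 6.46 in NT males. AAV-MIF mouse 2 fell just under NT male 4, and the difference was 0.68 ± 0.18 (SE, n = 4 each) with a limma adjusted p of 0.0472, close to the threshold, and 0.0571 in the exact permutation test (two-sided, unadjusted). The call was lost in 9 of 12 fits that left out 1 mouse, where the difference ran from 0.54 to 0.81 and the limma adjusted p from 0.0187 to 0.142. For Bst2 the difference was larger, 0.80 ± 0.27 (SE, n = 4 each), and was not called (limma adjusted p = 0.148), with NT males at 4.997, 6.16, 4.88 and 5.99. When limma was fitted on all 24 mice with a term for experiment, the Bst2 difference was 0.98 ± 0.24 and called (adjusted p = 0.00977). That fit adds both the NT and the SOD1-G37R mice of experiment 1 and takes the shift between experiments as common to the groups. Its estimate therefore also depends on the SOD1-G37R mice. The other 7 genes lay between -0.25 and 0.04 (limma adjusted p from 0.664 to 0.935).

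Both AAV-MIF comparisons use the same 4 treated mice, so their values are given side by side and no agreement is drawn from them. Over all genes 2.89% were higher in AAV-MIF than in NT males. Of the 51 measured genes of the wider interferon-stimulated list 2 were higher in AAV-MIF than in NT males, Ccl5, a chemokine (1.08 ± 0.20, limma adjusted p = 0.00578), and Lgals3bp (1.04 ± 0.20, limma adjusted p = 0.00687). Of the 19 interferon-gamma genes 5 were higher, among them Irf8 (1.37 ± 0.14, limma adjusted p = 4.16e-05), the guanylate-binding protein Gbp2 (0.80 ± 0.12, limma adjusted p = 0.00115), Psmb8 (1.10 ± 0.21, limma adjusted p = 0.00699) and the GTPase Irgm1 (0.62 ± 0.14, limma adjusted p = 0.0215). Of 13 receptor and signalling genes Socs3 alone was higher (0.87 ± 0.23, limma adjusted p = 0.0486), and 0 of 15 sensors were called. Markers of activated microglia were higher in 12 of 13, with a mean level of 6.94 to 7.56 in AAV-MIF mice, against 5.20 to 5.52 in NT males, and their part in the Ifitm3 difference was not tested.

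The genes of the panel varied between mice of the same group more than most genes of like level. After the removal of group means the SD of Isg15 was 0.461, larger than that of 98.7% of the genes within 0.5 of its level, and that of Bst2 was 0.397, larger than 98.5%. Ifit3 (0.383, 97.7%), Usp18 (0.322, 96.8%) and Ifit2 (0.283, 93.9%) followed, and Stat2 (0.195, 30.3%) did not share this spread. For Isg15 and Ifit3 the NT males of experiment 2 carried the widest spread of the groups, with Isg15 at 3.94, 5.05, 4.12 and 5.21 and Ifit3 at 3.30, 4.14, 2.76 and 4.21.

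The spread was largely common to the genes. Among NT males of experiment 2, mice 2 and 4 were above the group mean in 9 of 9 genes, mouse 1 in 2 and mouse 3 in 0. Among SOD1-G37R males of experiment 1, mouse 5 was above it in 9 of 9 genes and mouse 3 in 0. In AAV-MIF mice 1 and 4, and in SOD1-G37R males 1 and 4 of experiment 2, 7 of 9 genes were above the group mean. Mice of every arm thus included some that were high and some that were low in most of the panel, and these differences within a group were for Isg15 and Ifit3 larger than those between the groups. The NT males with high values did not stand out in markers of activated microglia, with a mean level of 5.52 and 5.20 in mice 2 and 4 against 5.44 and 5.23 in mice 1 and 3. Their mean level over 10 endothelial markers was 4.53 and 4.69, against 4.37 and 4.52 in mice 1 and 3.

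**Figure D4:**
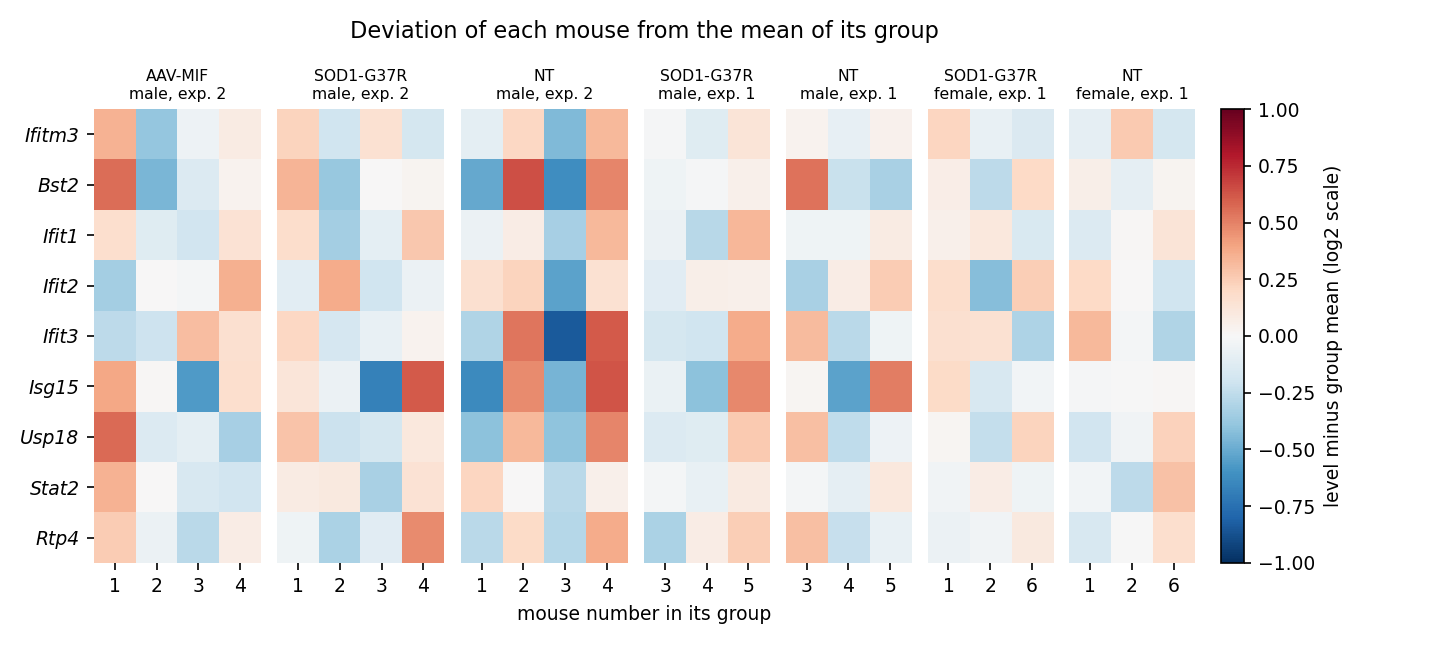
Level of each gene in each mouse minus the mean of its group on the log2 scale, in colour from blue (lower) to red (higher), by group and mouse number. Whole columns share a colour, as in NT males 2 and 4 of experiment 2 (9 of 9 genes above the group mean) and NT male 3 of experiment 2 (0 of 9).

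Across the 24 mice with group means removed, Pearson's r between genes was highest for Bst2 and Usp18 (0.84), Usp18 and Rtp4 (0.76), Ifit1 and Isg15 (0.72), Isg15 and Rtp4 (0.70), and Ifitm3 and Bst2 (0.70). Points of these correlations share a library and its normalization, and the values are descriptions with no test. For comparison, the 95th percentile of r with all genes was 0.37 for Isg15 and 0.43 for Usp18. Ifit2 stood apart, with r from -0.08 to 0.33 with the others, and Stat2 had 0.04 with Ifit3, 0.07 with Ifitm3 and at most 0.47, with Usp18. Although Ifit2 lies beside Ifit3 and Ifit1 in the genome, its r was 0.33 with Ifit3 and 0.01 with Ifit1, whereas that of Ifit1 and Ifit3 was 0.53.

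**Figure D5:**
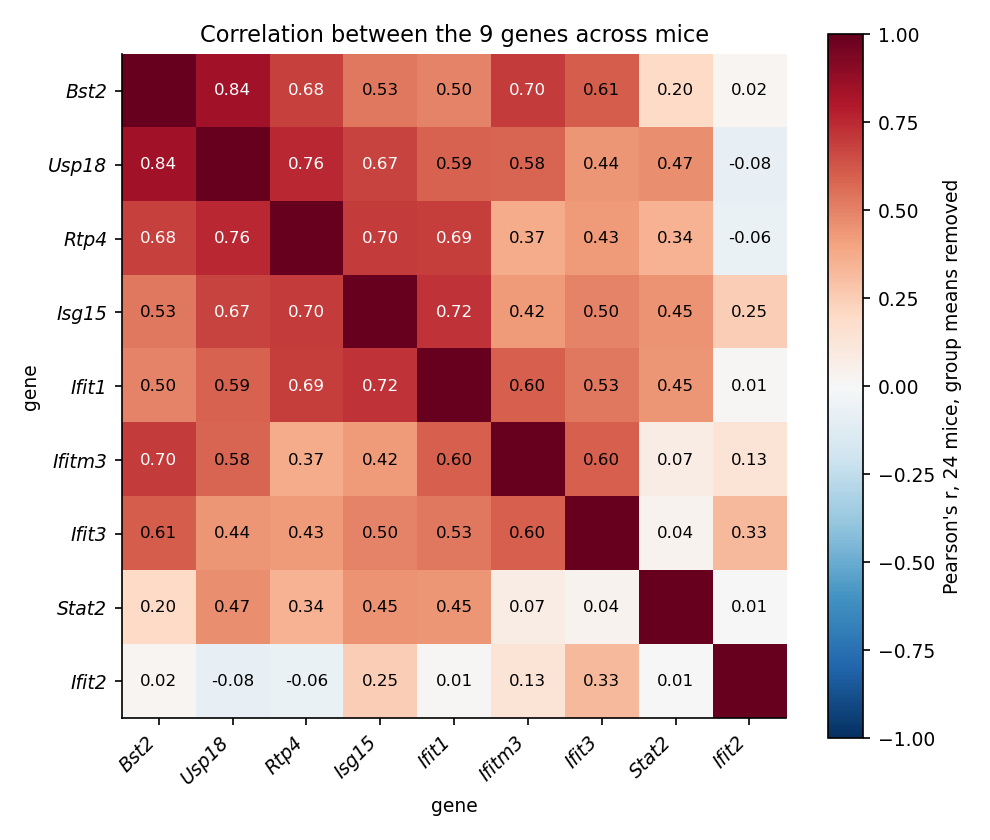
Pearson's r between the levels of the 9 genes across 24 mice after the mean of each group was removed, with the value in each square and colour from blue (-1) to red (1). Bst2, Usp18, Rtp4, Isg15 and Ifit1 form a block with r from 0.50 to 0.84, and the row of Ifit2 is pale, from -0.08 to 0.33.

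Beyond the panel, the gene most like Isg15 (r = 0.85), Rtp4 (r = 0.84) and Ifit1 (r = 0.80) over these 24 mice was the same one, Oasl2, a relative of the oligoadenylate synthetases. Its level was 3.66, 4.32, 3.45 and 4.89 in NT males 1 to 4 of experiment 2, the same mice being high as for Isg15. Of the 45 places that the 5 most similar genes of each of the 9 take up, 12 were held by genes of the interferon lists used here, 4 of them for Isg15, 3 for Rtp4, 2 each for Ifit1 and Usp18, 1 for Bst2 and 0 for Ifitm3, Ifit2, Ifit3 and Stat2. After Oasl2, Isg15 was most like Cxcl10 (0.77), Auh (0.77), Ifi27 (0.73) and Gbp3 (0.72). Those of Rtp4 included Abracl (0.81), Gm11772 (0.76) and Ifi27 (0.75), and those of Ifit1 Thada (0.78), Sh3rf1 (0.74) and Scgb3a1 (0.72). Usp18 was most like Gm8213 (0.86), A930012L18Rik (0.84), Ccl5 (0.81), Smyd3 (0.81) and Ifi27 (0.79), and so shared genes with both Bst2 and Isg15. For Bst2 the 5 were Ccl5 (0.82), Timm10b (0.81), Nemp2 (0.78), Ier5l (0.77) and A930012L18Rik (0.76). For Ifitm3 they were Echdc3 (0.80), Dxo (0.78), Rd3 (0.77), H2-K1, a class I histocompatibility gene (0.77), and Fkbp1a (0.76). For the called pair, Ccl5 alone of these names is in the interferon lists. These lists hold 51, 19, 15, 13 and 6 measured genes, with some overlap, of the 15524 in the table. That is a far smaller share than the 12 of 45 places. The genes most like Ifit2 were Cadm2 (0.89), LOC100862268 (0.87), Vkorc1l1 (0.87), Tspan2 (0.84) and Efcab14 (0.84). Those most like Ifit3 were Cacna1s (0.78), Ly6a (0.77), Ankrd55 (0.75), Ezh1 (0.74) and Bcl2l13 (0.73), and those most like Stat2 included Dck (0.76), Ston2 (0.74), Hic1 (0.74) and Ptchd4 (0.72). Ly6a was counted here as an endothelial marker, and whether it also answers to interferon was not tested. Neither Oasl2 (-0.21 ± 0.16, limma adjusted p = 0.364) nor Ifi27 (-0.07 ± 0.10, limma adjusted p = 0.668) was called between SOD1-G37R and NT mice.

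With group means left in, so that differences between genotypes count, the order changed for the called pair. Ifitm3 was then most like H2-K1 (0.94), Axl, a receptor of activated microglia (0.94), and Timp1 (0.93), and Bst2 most like Psmb8 (0.86), Psmb9 (0.86) and Lgals3bp (0.86). Its r with Ifitm3 was 0.86, whereas r of Ifitm3 with Isg15, Usp18 and Rtp4 was 0.05 to 0.06. For Isg15, Ifit1 and Rtp4 the most similar gene stayed Oasl2 (0.82, 0.76 and 0.80). With group means removed, the mean of the 13 markers of activated microglia had r of 0.08 with Ifitm3, -0.03 with Bst2 and -0.55 with both Isg15 and Ifit1. The mean of the 10 endothelial markers had 0.55 with Isg15 and 0.56 with Ifit1 and Ifit3. That mean includes Ly6a, itself among the genes most like Ifit3, and the part of any cell type in these correlations was not tested.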

How the data were processed

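Per the labels and the methods, the authors used Trim Galore 0.4.5 with cutadapt 1.15 for trimming, STAR 2.5.2a for alignment (GRCm38), RSEM 1.2.28 for gene quantification and SVA/ComBat for batch correction. The deposited log2 values per mouse were used as they stand, and neither the transform nor its base is given in the sources used here, so log2 is taken from their range. Columns of the authors' own comparisons, which hold fold changes and p-values, were not used. The methods give the average number of reads per sample after trimming but not the depth of each mouse, so no counting intervals are given.

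All 15524 genes were fitted with limma 3.58.1 in R 4.3.3, with no filter and no trend, and adjusted by Benjamini-Hochberg. The fit of SOD1-G37R against NT used 20 untreated mice with experiment in the model, as the study's own model did. AAV-MIF was compared among 12 males of experiment 2, sex by genotype in 12 mice of experiment 1 and experiment by genotype in 14 untreated males. Mice were assigned to experiments from the methods and the style of their codes, which stays unsure for the AAV-MIF mice, and how the batch removal treated these is not given in the sources used here. The plan assumed log2 values and was kept. Exact permutation tests (36, two-sided, unadjusted) compared each gene within experiments with scipy 1.17.1, numpy 2.4.6 and pandas 2.3.3 in Python 3.11.15, and matplotlib 3.10.9 drew the figures. The fits were tested on simulated data.

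The 9 genes, the lists and the tests were chosen with earlier results of these data known. Named genes were the 9 genes, up to 4 of smallest adjusted p in each other list (2 for markers), and, with group means removed, the 5 genes of highest r with each of the 9, of which some are not reported here. With group means left in, only leading genes are named. The table itself names 13809 genes, and 1711 more were named from their Ensembl identifiers. Lists of B cells (of 2 measured genes 1 lower in SOD1-G37R mice), oligodendrocytes (1 of 6 lower) and red cells (0 of 4 called) were counted too, and no neutrophil gene of the list was among the genes analysed here. Alternatives changed the mice, the covariates, a filter at a level of 2, a variance trend, median centring and quantile normalization.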

Additional observations from a re-analysis of the deposited data

Results flagged for a closer look

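In groups of 4 to 6 mice, 63 groups of values of the 9 genes were examined for a mouse far from the others, of which chance alone gives about 1 in 20, and 3 were found. NT female 2 of experiment 1 had the highest Ifitm3 of the 6 NT mice of that experiment, 6.40 against 6.04 in the next. NT male 3 of experiment 2 had the lowest Ifit2 of its group, 2.30 against 2.99 in the nearest. SOD1-G37R male 3 of experiment 2 had the lowest Stat2 of its group, 3.37 against 3.78 in the nearest. Leaving out any of these mice changed no call of the 9 genes for SOD1-G37R against NT.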

How the results depend on the processing

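For SOD1-G37R minus NT, the Ifitm3 call held in all 31 alternatives (difference 0.73 to 0.99) and the Bst2 call in 30, the exception being experiment 2 alone (0.41, limma adjusted p = 0.516). The 7 other genes were called in none. The number of genes called over the table was 4120, and 3704 to 4341 when 1 mouse was left out, 2444 in males only and 558 in experiment 2 only. Median centring moved the median of all genes by -0.07 and gave 1645 higher and 2945 lower calls, and quantile normalization 1982 and 2138, against 2290 and 1830, while experiment 2 alone gave 493 and 65. The calls of the 9 genes were the same under both scalings in this comparison.

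For AAV-MIF minus SOD1-G37R, no gene of the panel was called in any of 19 alternatives, and the table gave 1 call, 0 in the 8 mice of the groups compared, 4 on all 24 mice, 0 with the replicate block, 2 among genes at a level of at least 2, 3 with a variance trend and 0 to 2 with 1 mouse left out. For AAV-MIF minus NT, the Ifitm3 call held in 7 of 19 alternatives (difference 0.54 to 0.81) and was lost in the 8 mice alone (limma adjusted p = 0.0588), after median centring (0.0806) and after quantile normalization (0.0502), and Bst2 was called in 1, all 24 mice. Calls over the table numbered 483, and 1299 on all 24 mice and 276 to 588 with 1 mouse left out, the lowest without AAV-MIF mouse 3 and 304 without NT male 4. The cause of these changes was not tested. No called difference changed sign. Leaving out single mice from the interactions was added after the data were seen, and gave 0 calls in limma.

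The labels do not say that a number pairs mice. Deviations of mice with the same number correlated at -0.26 to 0.37 over all groups. Between AAV-MIF and SOD1-G37R males they correlated at 0.06 to 0.37, over 0.1 in 3 of 4 pairs, and 4 of 8 mice correlated best with their own number. These values do not settle whether the numbers are pairs. As the labels do not state a pairing, none was assumed. A replicate block gave 4147 calls for SOD1-G37R minus NT and 580 for AAV-MIF minus NT, with the calls of the 9 genes unchanged. For AAV-MIF minus SOD1-G37R the Bst2 difference under the block was 0.39 ± 0.27 (limma adjusted p = 0.9996). That block also holds the NT males, so it does not show what pairing AAV-MIF and SOD1-G37R males alone would give. Depth could not be set against any of these results.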
